A study of Mus musculus with 12 samples.

Results

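The colony-stimulating factors and their receptors were followed in the ischemic hemisphere of 12 male C57BL/6J mice. The family was defined by gene name as the rows Csf1, Il34, Csf2 and Csf3 for the ligands and Csf1r, Csf2ra, Csf2rb, Csf2rb2 and Csf3r for the receptors, and all 9 of these genes were found among the 39756 genes of the count table. Of the 9 genes, 8 passed the filter on low counts, which kept 17558 genes, and Csf2 did not. The family was proposed with the results of Csf3 and Csf1 in these mice already known, so the difference of Csf3 in both comparisons with the Vehicle group, and that of Csf1 between Vehicle and Sham, are given as descriptions without a test.

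The mice were 9 to 10 weeks old and fell into 3 groups of 4. Sham mice underwent sham surgery and received saline, Vehicle mice had the middle cerebral artery occluded for 45 min and reopened (tMCAO) and received saline, and LJP mice had tMCAO and received Laminaria japonica polysaccharide, an extract of brown seaweed. By the study's methods, LJP or saline was given into the stomach daily for 14 days before surgery and onwards after it. Every sample carried the same batch label, the mice carried no engineered allele, and the sources used here do not state the dose or hour of sampling for the sequenced mice, although the study gave LJP at several doses and took the middle one forward to later experiments. Each mouse gave between 17960353 and 22216315 counts, and summed neuron markers (3826 to 6872 CPM) and astrocyte markers (2593 to 4563 CPM) were high in every mouse, as the brain label implies.

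Colony-stimulating factors are secreted proteins that keep myeloid cells alive and drive them to divide and mature. CSF1 and IL-34 share 1 receptor, the tyrosine kinase CSF1R, on which microglia depend for survival. GM-CSF, the product of Csf2, binds the alpha chain Csf2ra together with the common beta chain Csf2rb, and the mouse has a second beta chain, Csf2rb2, which serves interleukin 3. G-CSF, the product of Csf3, binds Csf3r and drives the formation and release of neutrophils. The beta chains and Csf3r signal through JAK kinases and STAT factors.

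Levels are given as CPM, the counts of a gene scaled to a common library depth with TMM normalization factors, unless a sentence says otherwise. The tissue was whole hemisphere, so more cells of a type and more RNA per cell cannot be told apart.

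The ligands came first. Csf3, the granulocyte factor, was close to undetected in Sham mice, with raw counts of 0, 2, 1 and 0. In the Vehicle group it had 53, 111, 74 and 47 counts, or 2.41, 4.77, 3.98 and 2.53 CPM. In the LJP group it had 0, 1, 1 and 0 counts. Every Vehicle mouse was thus far above every mouse of the other groups, and the LJP and Sham mice covered almost the same range of counts. Summed over the 4 mice of each group, 285 counts in Vehicle stood against 3 in Sham, a ratio of 84.4 per unit of depth with an exact 95% counting interval from 28.6 to 412, and against 2 in LJP, a ratio of 135 with an interval from 36.9 to 1117. These intervals cover counting error and not the spread between mice.

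Some other transcripts differed among the Vehicle mice in another order. Il1b, a cytokine that induces colony-stimulating factors, had 96, 58, 5 and 12 counts in Vehicle mice 1 to 4, against 0 to 4 in Sham and 1 to 4 in LJP. Il6 had 52, 16, 3 and 1, against 0 to 1 in both other groups. Tnf, a further inducer, had 32, 15, 21 and 9 counts, against 0, 1, 4 and 0 in Sham and 6, 3, 7 and 3 in LJP. In Tnf and Il1b counts every Vehicle mouse was thus above every Sham and LJP mouse, as in Csf3. The inducers Tlr2, Tlr4 and Cebpd were highest in Vehicle mouse 2, as Csf3 was. The 12 neutrophil markers summed to 169, 41.3, 0.861 and 5.93 CPM in Vehicle mice 1 to 4, against 0.327 to 0.634 in Sham and 0.358 to 1.28 in LJP. Of these markers S100a8, which encodes an abundant calcium-binding protein of neutrophils, counted 1159, 278, 4 and 33 in Vehicle mice 1 to 4, and Elane, the neutrophil elastase gene, was at 0 in all 12 mice. With Vehicle mice 1 and 2 left out, Csf3 had a fitted log2 difference from Sham of 6.09, beside 6.18 with all mice. Leaving out 1 mouse at a time moved it from 5.79 without Sham mouse 4 to 7.12 without Sham mouse 2. The part of the inducers and of neutrophil content in the level of Csf3 was not tested.

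A second set of transcripts separated LJP from both other groups. The 8 airway and surfactant transcripts summed to 9.54 to 13.7 CPM in Sham, 9.76 to 12.3 in Vehicle and 0.818 to 2.01 in LJP, and Scgb1a1, an airway secretory protein, had 79 to 123 counts in Sham and Vehicle mice and 0 in each LJP mouse. Scgb3a1, of the same list, went the other way, with 1 to 3 counts in Sham, 5 to 29 in Vehicle and 8 to 27 in LJP, and was higher in LJP than in Sham by 2.93 on the log2 scale (adjusted p = 0.0217, edgeR). The part of this difference between libraries in the result for Csf3 was not tested.

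Csf1, the macrophage factor, was measured at 16.1, 18.3, 19.1 and 20.5 CPM in Sham mice. It reached 79.1, 86.4, 48.6 and 49.95 CPM in Vehicle mice, and 42.4, 35.8, 54.1 and 32.2 in LJP mice. All 8 tMCAO mice were above all Sham mice, and LJP mouse 3 lay above Vehicle mice 3 and 4. The mean was 18.5 ± 1.84 in Sham, 66.0 ± 19.6 in Vehicle and 41.1 ± 9.60 in LJP (SD, n = 4 each), which makes Vehicle 3.57-fold higher than Sham in the fit (log2 1.84). LJP stayed above Sham with a log2 difference of 1.15 (SE 0.21, adjusted p = 0.00688, edgeR). Between LJP and Vehicle the log2 difference was -0.68 (SE 0.20) and did not pass the test (adjusted p = 0.0721), and without Vehicle mice 1 and 2 it was -0.26. A gene on the opposite strand, Gm40121, spans the whole of Csf1 and had 535 to 584 counts in Sham, 337 to 521 in Vehicle and 366 to 578 in LJP. Its difference between Vehicle and Sham was -0.53 on the log2 scale (SE 0.19, adjusted p = 0.0418, edgeR), opposite to that of Csf1. Without strand information, reads from stretches that exons of both genes share cannot be told apart. The overlap was taken from the gene spans, and that of the exons was not measured.

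The promoter of Csf1 is printed because it held a match to a motif of NF-kappa B, a factor that Tnf and Il1b signaling is known to activate. The sequence is the 250 bases before the RefSeq start in GRCm38.p6, chr3:107760470-107760719, minus strand, and capitals mark the match to the motif, searched on both strands as GGGA, any base, TT, any base, CC.
Csf1: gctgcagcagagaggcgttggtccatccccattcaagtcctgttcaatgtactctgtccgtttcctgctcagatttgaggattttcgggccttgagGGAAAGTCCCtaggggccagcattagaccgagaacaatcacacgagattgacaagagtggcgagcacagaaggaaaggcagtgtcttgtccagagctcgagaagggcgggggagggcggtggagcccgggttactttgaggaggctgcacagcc
The match starts 154 bases before the start of transcription, and 0.98% of the 32851 promoter windows of the same length hold 1. No window of Csf2, Csf3r, Csf2ra or Csf2rb2 held this motif. The match is a description of the letters, not a measured binding site.

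Il34, the other ligand of CSF1R, which neurons are known to make, moved the opposite way. Sham mice had 58.1, 55.2, 56.3 and 61.9 CPM, and Vehicle mice had 40.8, 39.8, 50.1 and 47.6. LJP mice had 57.9, 46.5, 44.5 and 49.2. No Vehicle mouse reached the lowest Sham mouse, whereas LJP overlapped both groups. Il34 was lower in Vehicle than in Sham, with a log2 difference of -0.38 (SE 0.10, adjusted p = 0.0107, edgeR). Without Vehicle mice 1 and 2 the difference was -0.25 and no longer passed (adjusted p = 0.0514, within a range from 0.00300 to 0.0514 over 19 alternatives). LJP differed from Vehicle by 0.15 (SE 0.10, adjusted p = 0.309) and from Sham by -0.23 (SE 0.10, adjusted p = 0.247). The 8 neuron markers summed to 6157 to 6809 CPM in Sham, 3826 to 5969 in Vehicle and 5757 to 6872 in LJP. Per 100 CPM of those markers Il34 stood at 0.891 ± 0.0454 in Sham, 0.877 ± 0.110 in Vehicle and 0.800 ± 0.130 in LJP (SD, n = 4), and the 3 ranges overlapped. The part of neuron content in the fall of Il34 was not tested.

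The balance of the ligands of CSF1R shifted within each mouse. Per base of gene length, Il34 was 6.83 to 8.38 times as abundant as Csf1 in Sham mice, 1.07 to 2.39 times in Vehicle mice and 1.91 to 3.54 times in LJP mice. No tMCAO mouse reached the Sham range, and LJP mouse 3, at 1.91, lay inside the Vehicle range. The same ratio is a restatement of the values of both genes, and carries no further test.

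Csf2, which encodes GM-CSF, had 0 counts in all 12 mice. A count of 0 allows up to 3 counts, which is 0.129 to 0.173 CPM in these libraries, a limit that lies below the lowest Vehicle value of Csf3. No comparison of Csf2 could be made.

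**Figure D1:**
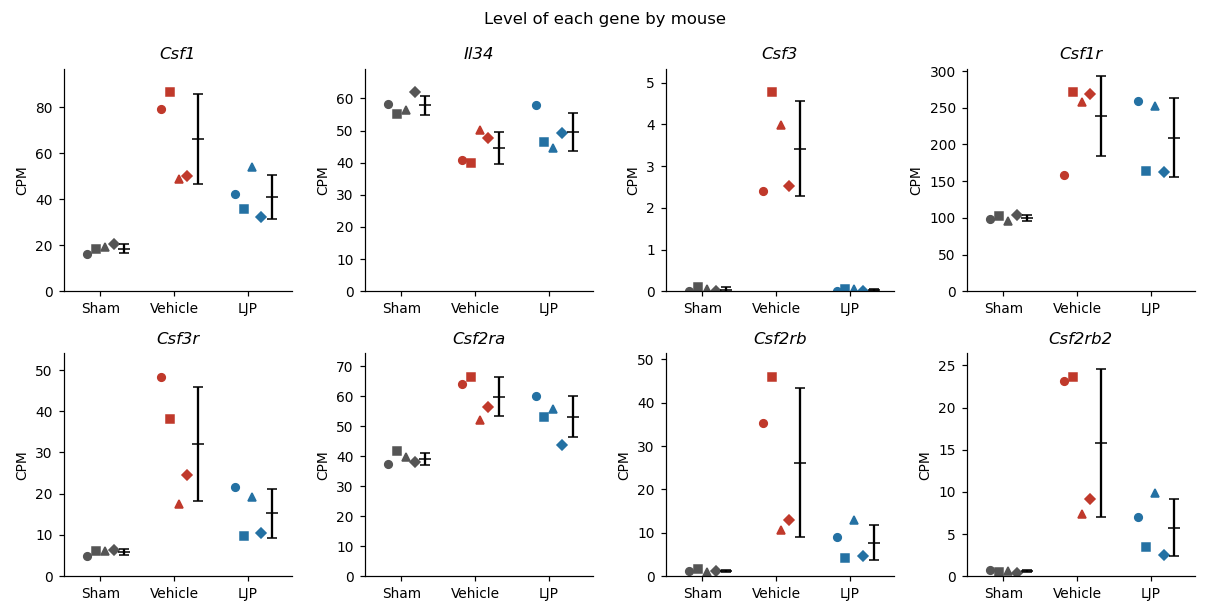
Level of the 8 detected family genes in CPM (vertical axis, starting at 0) for each mouse of the Sham, Vehicle and LJP groups. Circles, squares, triangles and diamonds are mice 1 to 4, and the bar beside them is the mean with 1 SD. Csf3 is raised in the 4 Vehicle mice alone, and Csf1, Csf3r, Csf2ra, Csf2rb and Csf2rb2 are highest in Vehicle mice 1 and 2.

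The receptors were higher in both tMCAO groups than in Sham. Csf1r, the receptor of CSF1 and IL-34, was at 98.2, 102, 95.1 and 104 CPM in Sham mice. Vehicle mice had 158, 271, 257 and 269 CPM, and LJP mice had 259.9, 163, 252 and 163. The groups after tMCAO lay wholly above Sham and covered nearly the same range as each other. Vehicle exceeded Sham by 1.26 on the log2 scale (SE 0.19, adjusted p = 0.000600, edgeR), a 2.39-fold difference, and LJP exceeded Sham by 1.07 (SE 0.19, adjusted p = 0.00627). LJP and Vehicle differed by -0.19 with an interval from -0.59 to 0.22 (adjusted p = 0.505), so a fall of up to 0.59 is within the error.

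Csf1r moved with microglia markers. The 10 markers summed to 252 to 259 CPM in Sham, 321 to 829 in Vehicle and 456 to 888 in LJP, and 6 of them rose in Vehicle and 6 in LJP against Sham, where 22.7% and 3.85% of all genes were called higher. Tmem119 was among those that rose in Vehicle (log2 difference 1.00, adjusted p = 0.00947), and P2ry12, with a difference of 0.12 (adjusted p = 0.768), did not pass. The ratio of Csf1r to the sum was 0.392 ± 0.0192 in Sham, 0.387 ± 0.0794 in Vehicle and 0.321 ± 0.0366 in LJP (SD, n = 4). The highest ratio, 0.493, was in Vehicle mouse 1, the mouse with the lowest Csf1r of its group. Every LJP mouse had a lower ratio than every Sham mouse, with an upper end of 0.359 against a lower end of 0.368, and Vehicle mice 3 and 4, at 0.328 and 0.324, were below every Sham mouse as well. In log2 CPM scaled to the same mean and SD over the 12 mice, the genes with the profile nearest to Csf1r were Ctsd at a root mean square difference of 0.103 SD, Trem2 at 0.116, Mpeg1 at 0.156, Rasal3 at 0.161 and Ly86 at 0.167. Ctsd is a lysosomal protease and Trem2 a lipid receptor of microglia and macrophages. All 5 share libraries, depth and cell content with Csf1r.

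Csf3r, the G-CSF receptor, had 4.79, 6.05, 6.03 and 6.43 CPM in Sham mice. In Vehicle mice it had 48.2, 38.2, 17.4 and 24.5 CPM, and in LJP mice 21.5, 9.82, 19.3 and 10.4. Each tMCAO mouse exceeded each Sham mouse, and LJP mice 1 and 3 lay above Vehicle mouse 3. Vehicle was 5.51-fold higher than Sham, a log2 difference of 2.46 (SE 0.34, adjusted p = 0.000338, edgeR). LJP was above Sham by 1.39 (SE 0.33, adjusted p = 0.0320) and differed from Vehicle by -1.07 (SE 0.32, adjusted p = 0.0720). The call against Sham passed in 6 of the 12 fits that left out 1 mouse.

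The same receptor is carried by neutrophils and by microglia, and both marker lists were set beside it. In Sham and LJP mice Csf3r stood at 0.0188 to 0.0255 and 0.0215 to 0.0245 of the summed microglia markers. Vehicle mice 3 and 4, at 0.0222 and 0.0296, were near that range, whereas Vehicle mice 2 and 1, at 0.0569 and 0.150, were above it. Vehicle mice 1 and 2 were also those with 169 and 41.3 CPM of neutrophil markers. They had the most monocyte and macrophage markers as well (678 and 1430 CPM, against 280 and 333 in Vehicle mice 3 and 4) and the most endothelial markers (636 and 1326 CPM, against 279 and 341). Fn1 made up much of the monocyte and macrophage sum, with 4258 and 4710 counts in Vehicle mice 3 and 4 and 10066 and 25561 in Vehicle mice 1 and 2. The part of cell content in the difference of Csf3r was not tested. Without these 2 mice the log2 difference between Vehicle and Sham was 1.84 (adjusted p = 0.000161, over a range from 1.69e-12 to 0.00245 in 19 alternatives) in place of 2.46, and that between LJP and Vehicle was -0.46 in place of -1.07.

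**Figure D2:**
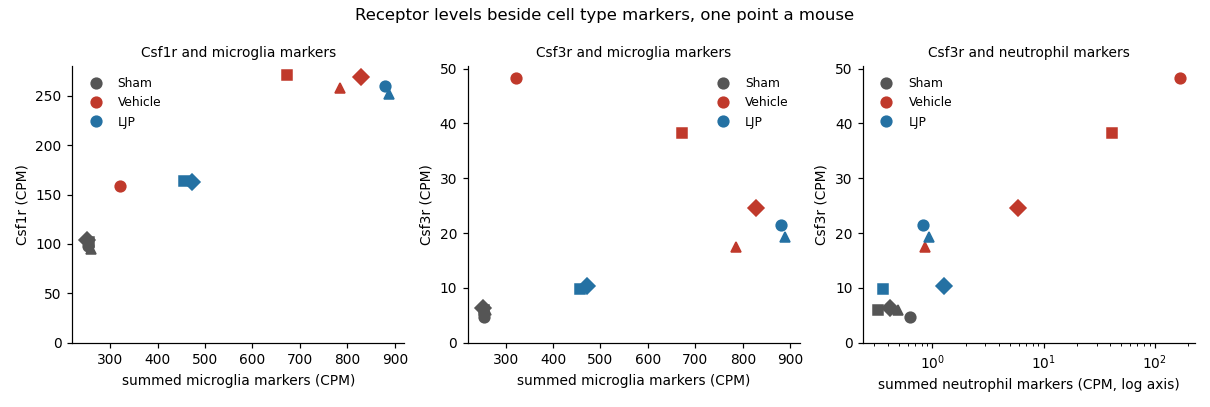
Each point is 1 mouse, with the summed markers of a cell type in CPM on the horizontal axis (logarithmic in the right panel) and the receptor in CPM on the vertical axis, marked as mice 1 to 4 by circles, squares, triangles and diamonds. Csf1r and microglia markers are both higher in the tMCAO groups than in Sham, while Csf3r in Vehicle mice 1 and 2 (48.2 and 38.2 CPM) lies above the mice with similar microglia markers and at the highest neutrophil markers.

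The chains of the GM-CSF receptor differed in size of change. Csf2ra, the ligand-specific alpha chain, had 37.3, 41.7, 39.7 and 38.1 CPM in Sham, 64.2, 66.3, 52.3 and 56.6 in Vehicle and 60.3, 53.0, 55.6 and 43.9 in LJP. Both tMCAO groups lay above Sham and overlapped each other. The log2 difference was 0.61 between Vehicle and Sham (SE 0.10, adjusted p = 0.00118, edgeR), a 1.53-fold difference, 0.44 between LJP and Sham (SE 0.10, adjusted p = 0.0316) and -0.17 between LJP and Vehicle (SE 0.10, adjusted p = 0.278). The call of LJP against Sham passed in 5 of the 12 fits without 1 mouse.

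Csf2rb, the common beta chain, had 1.15, 1.58, 0.986 and 1.30 CPM in Sham mice. It had 35.3, 45.8, 10.6 and 13.04 CPM in Vehicle mice and 9.08, 4.29, 12.8 and 4.57 in LJP mice. The lowest tMCAO mouse was above the highest Sham mouse, and LJP mouse 3 lay above Vehicle mouse 3. Vehicle was higher than Sham by 4.38 on the log2 scale (SE 0.55, adjusted p = 0.000209, edgeR), or 20.8-fold, and by 3.22 without Vehicle mice 1 and 2. LJP was higher than Sham by 2.61 (SE 0.54, adjusted p = 0.0153) and differed from Vehicle by -1.77 (SE 0.46, adjusted p = 0.0678), or by -0.62 without Vehicle mice 1 and 2. The call of LJP against Sham held in 8 of the 12 fits without 1 mouse, with a highest adjusted p of 0.0587.

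Csf2rb2, the beta chain for interleukin 3, followed the same order. Sham mice had 0.750, 0.545, 0.603 and 0.415 CPM, Vehicle mice 23.1, 23.6, 7.43 and 9.11, and LJP mice 7.04, 3.48, 9.90 and 2.56. Here too LJP overlapped Vehicle, and both lay above Sham. The log2 difference was 4.77 between Vehicle and Sham (SE 0.56, adjusted p = 0.000151, edgeR), or 27.3-fold, and 3.83 without Vehicle mice 1 and 2. It was 3.31 between LJP and Sham (SE 0.56, adjusted p = 0.00450), a call that passed in all 12 fits without 1 mouse, and -1.46 between LJP and Vehicle (SE 0.44, adjusted p = 0.0745), or -0.52 without Vehicle mice 1 and 2.

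Csf2rb and Csf2rb2 lie side by side on chromosome 15 and are near-identical copies. Their coding sequences, of 2691 and 2637 bases in GENCODE M21, had the same base at 2505 of 2631 aligned positions, or 95.2%. The first 120 coding bases of each, joined across an intron, are printed to show how close the copies are, with the differing bases in capitals.
Csf2rb: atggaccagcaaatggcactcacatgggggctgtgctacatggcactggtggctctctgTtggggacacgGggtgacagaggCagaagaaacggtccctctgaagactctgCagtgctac
Csf2rb2: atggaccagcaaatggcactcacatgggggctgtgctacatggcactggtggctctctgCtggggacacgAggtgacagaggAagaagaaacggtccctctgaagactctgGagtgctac
These bases lie within chr15:78335207-78336379 on the plus strand and chr15:78297071-78298229 on the minus strand of GRCm38. The windows differ at 4 bases. Of the 4615 stretches of 150 bases, the read length, in the Csf2rb transcript, 165 (3.58%) occur unchanged in Csf2rb2, so most full reads differ between the copies by at least 1 base. How reads matching both genes were counted is not given in the sources used here, and the split between the copies is therefore uncertain. The ratio of Csf2rb to Csf2rb2 counts was 1.54 to 3.13 in Sham, 1.43 to 1.94 in Vehicle and 1.24 to 1.78 in LJP, and the ranges overlapped.

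The beta chains together stood at 0.0401 to 0.0510 counts per count of Csf2ra in Sham mice, 0.345 to 1.05 in Vehicle and 0.147 to 0.409 in LJP. No tMCAO mouse came near the Sham range, and LJP mouse 3, at 0.409, lay above Vehicle mice 3 and 4, at 0.345 and 0.391.

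**Figure D3:**
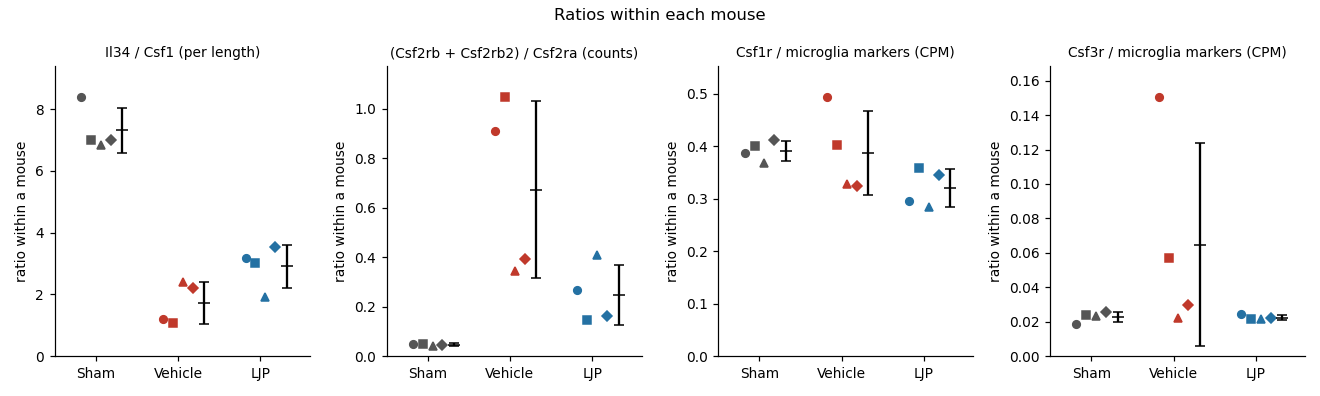
Ratios within each mouse (vertical axes, starting at 0) by group, with circles, squares, triangles and diamonds for mice 1 to 4 and the mean with 1 SD beside them. From left to right they are Il34 over Csf1 per length, both beta chains over Csf2ra in counts, and Csf1r and Csf3r over summed microglia markers in CPM. The first ratio falls from 6.83 to 8.38 in Sham to 3.54 or less after tMCAO, and the second rises from 0.0510 or less to 0.147 or more.

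The promoters of Csf3r, Csf2ra and Csf2rb2 are printed because these genes were higher together after tMCAO. No window was available for the receptors Csf1r and Csf2rb. Each is the 250 bases before a RefSeq start in GRCm38.p6. That of Csf3r lies inside the annotated gene, before a start downstream of the gene's first base, that of Csf2ra overlaps the first bases of its gene, and that of Csf2rb2 ends where the gene begins. Capitals mark matches to GAGGAA, the core letters of the myeloid factor PU.1, and to the STAT motif TTCNNNGAA.
Csf3r: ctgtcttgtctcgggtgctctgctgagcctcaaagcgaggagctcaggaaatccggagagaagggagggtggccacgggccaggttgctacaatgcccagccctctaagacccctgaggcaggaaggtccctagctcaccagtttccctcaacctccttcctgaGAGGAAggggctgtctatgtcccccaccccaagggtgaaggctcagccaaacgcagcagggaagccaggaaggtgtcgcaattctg
Csf2ra: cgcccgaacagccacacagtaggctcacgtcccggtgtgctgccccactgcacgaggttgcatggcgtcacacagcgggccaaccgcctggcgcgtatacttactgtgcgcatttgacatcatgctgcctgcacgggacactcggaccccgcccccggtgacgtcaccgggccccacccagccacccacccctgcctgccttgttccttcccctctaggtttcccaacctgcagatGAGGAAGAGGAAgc
Csf2rb2: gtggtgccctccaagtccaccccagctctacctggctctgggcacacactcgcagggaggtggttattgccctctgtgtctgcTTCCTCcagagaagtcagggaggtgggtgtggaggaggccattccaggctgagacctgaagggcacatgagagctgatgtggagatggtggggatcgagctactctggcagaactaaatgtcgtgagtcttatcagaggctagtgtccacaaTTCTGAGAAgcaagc
The windows are chr4:126024409-126024658 (plus strand), chr19:61228419-61228668 (minus strand) and chr15:78305722-78305971 (minus strand). Each of the 3 held GAGGAA on 1 of the strands, as did 23.3% of all promoter windows. Only the Csf2rb2 window among them held the STAT motif, 15 bases before the start, as did 7.02% of all. Of the 5 members with a window, the C/EBP motif TTNNGCAA matched 1, Csf2, at 145 bases before the start, against 9.56% of all windows. The AP-1 motif TGANTCA matched none of the 5, against 6.75%. Csf3, Il34, Csf1r and Csf2rb had no window and were not searched.

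Read over the family without the results that were known when it was chosen, the 5 receptors were higher and Il34 was lower in Vehicle than in Sham, so that all 6 of these genes passed. In that comparison 39.9% of all genes tested passed, 22.7% higher and 17.3% lower. The groups did not overlap in any of the 6, as in 39.5% of all genes. Between LJP and Vehicle, none of the 7 tested genes other than Csf3 passed in edgeR, where 0.0228% of all genes did, namely 4 genes that were all lower in LJP. Of the 4, 1 was Csf3, whose difference was known beforehand and is not read as a test, and 3 were Scgb1a1, Sftpa1 and Sftpb, all of the airway and surfactant list that separated LJP from the other groups, and the part of that difference between libraries in the count was not tested. The groups overlapped in all 7, where 5.91% of all genes lay wholly lower in LJP. At an unadjusted p below 0.05, 4 of the 7 genes and 29.7% of all genes were found, DESeq2 called 13.2%, and the thresholds of the study's methods (a log2 difference over 0.58 at an unadjusted p below 0.01) called 6.97%. Under DESeq2, and under those thresholds, the same 4 of the 7 genes passed, with Csf1 (DESeq2 adjusted p = 0.0216), Csf2rb (0.00434), Csf2rb2 (0.0171) and Csf3r (0.0142) lower in LJP. The adjusted p of these 4 genes ranged up to 0.478, 0.434, 0.568 and 0.463 when Vehicle mice 1 and 2 were left out, and each passed when Vehicle mouse 3 or 4 was left out. The fits without Vehicle mouse 3 and without Vehicle mouse 4 called 3857 and 2095 of all genes, beside 4 with all mice. Between LJP and Sham, 6 genes passed, all higher, where 4.75% of all genes passed and 3.85% were higher. In these 6 the groups did not overlap, as in 12.9% of all genes with LJP higher. Csf1 and the 5 receptors made up the 6, and without LJP mouse 3 or any of Sham mice 1, 3 and 4 only 3 passed, namely Csf1, Csf1r and Csf2rb2.

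**Figure D4:**
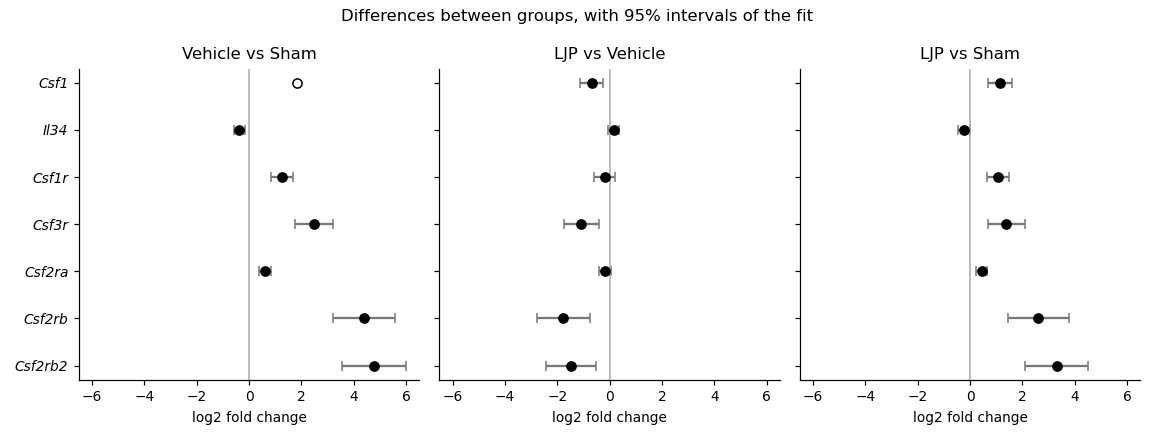
Log2 fold change (horizontal axis) of 7 family genes in the 3 comparisons, as points with the 95% interval of the edgeR fit. The open point, Csf1 between Vehicle and Sham, carries no interval because this result was known when the family was chosen, and Csf3 is left out for the same reason. Intervals of the receptors lie above 0 against Sham in both tMCAO groups.

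As a description of the means, the difference between LJP and Sham was 25.8% of the difference between Vehicle and Sham for Csf2rb, 33.9% for Csf2rb2, 35.8% for Csf3r and 47.7% for Csf1. The same share was 62.9% for Il34, 67.8% for Csf2ra and 78.9% for Csf1r, and for Csf3 it was -0.431%. These shares depend on Vehicle mice 1 and 2. With Vehicle mice 3 and 4 alone they were 61.0% for Csf2rb, 67.2% for Csf2rb2, 62.1% for Csf3r and 73.6% for Csf1, and 92.7% for Il34, 92.0% for Csf2ra, 67.2% for Csf1r and -0.453% for Csf3. The order of these shares was not tested, since both differences share the Sham mice.

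Per kilobase of gene length, Il34 was the most abundant member in Sham at 30.4 ± 1.53 CPM per kilobase, ahead of Csf1r at 25.8 ± 1.01. In Vehicle the order was turned, with Csf1r at 61.6 ± 13.9 and Il34 at 23.4 ± 2.66, and LJP had Csf1r at 54.1 ± 13.8 and Il34 at 26.0 ± 3.10. Csf1 and Csf2ra, at 4.18 ± 0.416 and 4.14 ± 0.206 in Sham, did not differ beyond their spread. The place of Csf2ra rests on the deposited length of 9464 bases, whereas the longest coding transcript in GENCODE M21 has 1849 bases, and with that length Csf2ra came to 21.2 in Sham, beside 21.2 for Csf1r. Csf3r, Csf2rb, Csf2rb2 and Csf3 followed in each group, in that order, ahead of Csf2 at 0, and in Vehicle Csf3r at 5.49 ± 2.36 and Csf2rb at 5.37 ± 3.52 did not differ beyond their spread.

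The genes that act with the family were counted from lists. Like the marker lists, these were chosen with earlier results of these data known, so their counts are descriptions. Among 13 inducers of colony-stimulating factors 9 were tested, and all 9 rose between Vehicle and Sham with a median log2 difference of 1.91, where 22.7% of all genes were called higher and their median was near 0. Il1a, with 5 to 10 counts in Sham, was among the 9 and passed the filter on low counts through the tMCAO mice. Tlr2, a receptor for bacterial lipoproteins, was higher by 4.16 (adjusted p = 1.54e-05, edgeR), Cebpd, a transcription factor of acute inflammation, by 4.14 (adjusted p = 0.000181) and Tlr4, the endotoxin receptor, by 2.20 (adjusted p = 0.000593). None of the 9 passed between LJP and Vehicle in edgeR, where 0.0228% of all genes passed, and their median was -0.92. At an unadjusted p below 0.05, 7 were lower in LJP, and DESeq2 called 6 lower, where 29.7% and 13.2% of all genes passed in either direction. The list summed to 503, 555, 220 and 249.6 CPM in Vehicle mice and to 148 to 242 in LJP mice, so that only Vehicle mice 1 and 2 stood far above LJP. Without those mice 7 of the 9 rose between Vehicle and Sham, where 15.7% of all genes were then called higher, with a median of 1.19, and the median between LJP and Vehicle was -0.34. Against Sham, 2 were higher in LJP, where 3.85% of all genes were, and 8 without Vehicle mice 1 and 2, where 12.3% of all genes were.

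Downstream of the receptors, 13 of 20 JAK-STAT effectors rose between Vehicle and Sham, none fell, and the median was 1.39, beside the 22.7% of all genes called higher. Ptpn6, a phosphatase that restrains cytokine receptors, was higher by 2.75 (adjusted p = 0.000113), and the kinase Lyn by 2.48 (adjusted p = 0.000217). Between LJP and Vehicle none passed in edgeR, as 0.0228% of all genes did, and the median was -0.66, while 13 were lower at an unadjusted p below 0.05 and DESeq2 called 8 lower, beside 29.7% and 13.2% of all genes in either direction. Summed over the list, Vehicle mice had 1798, 1961, 1081 and 1132 CPM and LJP mice 950 to 1108, so the separation was again in Vehicle mice 1 and 2. With both left out 11 of the 20 rose between Vehicle and Sham, against 15.7% of all genes, and the medians were 0.63 in that comparison and -0.14 between LJP and Vehicle. Against Sham, 3 were higher in LJP in the fit of all mice, beside the 3.85% of all genes, and 12 in the fit without those mice, beside 12.3%. Of the 16 genes of CSF1R signaling 8 rose between Vehicle and Sham, against the same 22.7%. Inpp5d, an inositol phosphatase, was higher by 1.99 (adjusted p = 8.96e-05), the adaptor Tyrobp by 2.81 (adjusted p = 9.61e-05) and Plcg2 by 2.42 (adjusted p = 0.000151). None of them passed between LJP and Vehicle in edgeR, where 5 were lower and 1 higher at an unadjusted p below 0.05 and DESeq2 called 3 lower and 1 higher, beside the same 29.7% and 13.2% of all genes. Against Sham, 5 were higher in LJP, against the same 3.85%.

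All 5 myeloid transcription factors tested of 7 rose in Vehicle and in LJP against Sham, where 22.7% and 3.85% of all genes did. None passed between LJP and Vehicle in edgeR, although 3 were lower at an unadjusted p below 0.05 and DESeq2 called 3 lower, where 29.7% and 13.2% of all genes passed in either direction. Spi1, which encodes PU.1, was higher by 2.89 between Vehicle and Sham (adjusted p = 0.000124) and Cebpa by 1.97 (adjusted p = 6.92e-05). Among 10 related ligands and receptors 7 were tested and 3 rose between Vehicle and Sham, against 22.7% of all genes, namely Il3ra, the alpha chain that pairs with the beta chains, by 2.50 (adjusted p = 0.000381), the proteoglycan Sdc1 by 3.78 (adjusted p = 0.00109) and the growth factor gene Flt3l by 0.99 (adjusted p = 0.00734). None of the 7 passed between LJP and Vehicle in edgeR. At an unadjusted p below 0.05, and under DESeq2, 2 were lower and 1 higher, beside the same 29.7% and 13.2% of all genes. Against Sham, 1 was higher in LJP, beside 3.85% of all genes. Beside these lists, the 12 monocyte and macrophage markers summed to 112 to 114 CPM in Sham, 280 to 1430 in Vehicle and 159 to 309 in LJP, with 1430 in Vehicle mouse 2 and 678 in Vehicle mouse 1. Much of these sums was 1 gene, Fn1, with a mean of 85.2 CPM in Sham, 510 in Vehicle and 157 in LJP. All 10 of the monocyte and macrophage markers tested rose between Vehicle and Sham, where 22.7% of all genes did. Ccr2 and Ms4a7, with 2 to 7 counts in Sham, passed the filter through the tMCAO mice, which partly fixed that count. None of the 10 passed between LJP and Vehicle in edgeR. At an unadjusted p below 0.05, 8 were lower, and DESeq2 called 7 lower, beside the same 29.7% and 13.2% of all genes. None was higher in LJP than in Sham, beside 3.85% of all genes, and 6 were without Vehicle mice 1 and 2, beside 12.3%. The 6 endothelial markers summed to 202 to 221 CPM in Sham, 279 to 1326 in Vehicle and 195 to 251 in LJP. The part of cell content in the list counts was not tested.

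**Figure D5:**
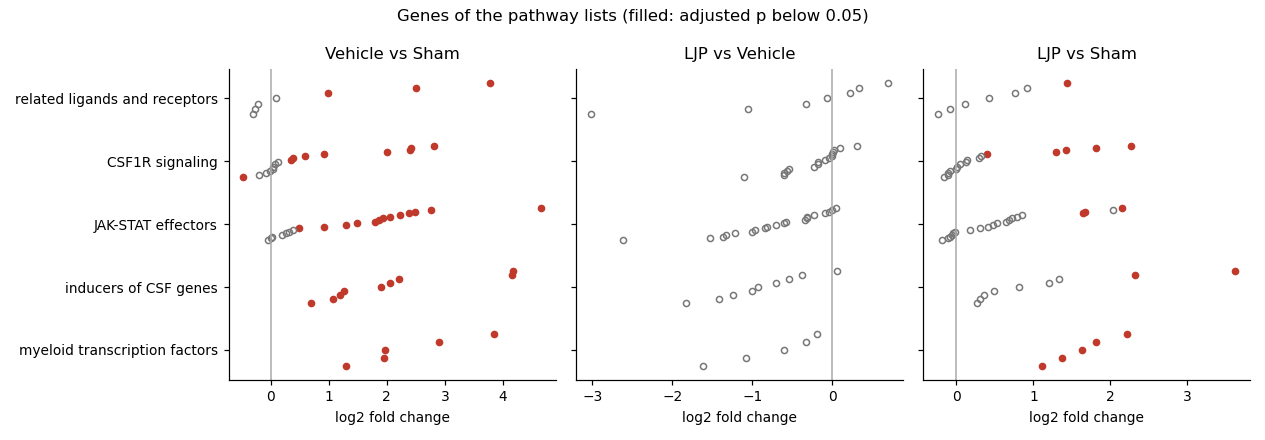
Log2 fold change (horizontal axes, scaled per panel) of each tested gene of 5 lists that act with the family, in the 3 comparisons. Filled points have an adjusted p below 0.05 and open points do not. All tested inducers (9) and myeloid transcription factors (5) are filled in Vehicle against Sham, and no point is filled in LJP against Vehicle.

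The genes nearest to Csf3 in scaled profile were less close than those of Csf1r. They were Lage3 at a root mean square difference of 0.389 SD, D8Ertd738e at 0.412, Gtf3c5 at 0.418, Eda2r at 0.420 and Hspb7 at 0.426. Eda2r, a receptor of the tumor necrosis factor family, had 4 to 9 counts in Sham, 23 to 90 in Vehicle and 4 to 18 in LJP. Lage3 had 102 to 119 counts in Sham, 174 to 230 in Vehicle and 128 to 148 in LJP, a smaller change in a gene with a higher level. These profiles were chosen by likeness to Csf3 and are not further evidence for it.

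Other genes overlap members on the opposite strand with few counts. Csf3 shares 1328 bases with Gm38985, which had 4 counts in 1 Vehicle mouse, Csf2 lies within Gm12223, with at most 5 counts per mouse, Csf3r overlaps Gm32908, with at most 11, and Csf1r overlaps Gm52352, with at most 31. Il34 overlaps Gm15894, Gm15895 and Gm39250, with at most 9, 17 and 3. Csf2ra overlaps no other gene of the table.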

How the data were processed

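Total RNA of the ischemic hemisphere was poly(A)-selected, made into libraries with a kit that does not mark strand and sequenced as paired-end reads of 150 bases. The authors deposited raw counts per gene and mouse, and per the labels featureCounts and DESeq2 were used, with no version. The labels name GRCm39 and mm10, and the gene positions equal those of GRCm38.p6 for 39726 of 39756 genes. The aligner and the handling of shared reads are not given in the sources used here. The deposited table also gives gene lengths, used only to set levels of different genes side by side.

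The test was that of edgeR 4.0.16 in R 4.3.3 (filterByExpr, TMM, quasi-likelihood fit of all 12 mice with a coefficient per group). Benjamini-Hochberg adjustment ran over the 17558 genes kept, and an adjusted p below 0.05 counted as passed. Alternatives were DESeq2 1.42.0, other scalings, no filter, only the 2 groups compared, a replicate block, the study's thresholds (log2 fold change over 0.58, unadjusted p below 0.01) and leaving out each mouse. Leaving out Vehicle mice 1 and 2, and using transcript lengths from GENCODE M21, were added after the data were seen. The fit was tested on simulated data. Log2 CPM used a prior count of 2.

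The family, gene lists, motifs and named genes were chosen with earlier results of these data known. Named genes were the 9 members, the 3 genes of each list with the smallest p between Vehicle and Sham, the 5 genes nearest in profile to Csf3 and to Csf1r, genes overlapping a member, and markers beside a result they moved with. A few list genes that this rule names are not reported here. Il1b, Il6, Tnf, Eda2r, Scgb3a1, Sftpa1, Sftpb, P2ry12 and Elane were singled out from their lists after their values were seen. Replicates are the labelled mice, each with its own sample. Depth was 17960353 to 22216315 counts per mouse, which puts 3 counts at 0.129 to 0.173 CPM. Promoter windows came from RefSeq for 5 of the 9 members (Csf1, Csf2, Csf2ra, Csf2rb2 and Csf3r), and transcripts from GENCODE M21.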

Additional observations from a re-analysis of the deposited data

Results flagged for a closer look

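In 42 sets of 4 mice (8 genes and 6 ratios in 3 groups), 5 had 1 mouse that stood apart from the other 3 by more than Dixon's 95% limit, where chance alone gives about 2.1. Csf1r in Vehicle mouse 1 was lowest, at 158 CPM against 257 to 271, with a gap of 0.88 of the group's range. This was the Vehicle mouse with the lowest sum of microglia markers (321 CPM). The ratio of Il34 to Csf1 per length was highest in Sham mouse 1, at 8.38 against 6.83 to 7.01 (gap 0.883). The ratio of Csf2rb to Csf2rb2 was highest in LJP mouse 4, at 1.78 against 1.24 to 1.30 (gap 0.888). Csf3r over microglia markers was highest of its group in LJP mouse 1, at 0.0245 against 0.0215 to 0.0219 (gap 0.856). Il34 per 100 CPM of neuron markers was highest of its group in Vehicle mouse 2, at 1.04 against 0.801 to 0.839 (gap 0.838), and that mouse had the lowest sum of neuron markers, 3826 CPM. The causes were not tested.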

How the results depend on the processing

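The family counts here include Csf3 and Csf1, whose results were known when the family was chosen. Between Vehicle and Sham the family count was 8 under each other setting except the study's thresholds and the fit without Vehicle mice 1 and 2, which both left out Il34 and gave 7. The number of all genes called moved from 7014 to 3807 under those thresholds, and from 5285 to 8200 when 1 mouse was left out. Between LJP and Vehicle the count of all genes, 4 as reported, was 2307 with DESeq2, 593 without the filter, 2 with the replicate block, 2 with only the groups compared, 1223 with the study's thresholds, 8 without Vehicle mice 1 and 2, and 3 to 3857 without 1 mouse. The family count, 1 as reported, was 5 with DESeq2, 2 without the filter, 5 with the study's thresholds and 1 to 5 without 1 mouse, with 5 reached without Vehicle mouse 3 or 4. Those fits called 3857 and 2095 of all genes. Between LJP and Sham the count of all genes, 834 as reported, was 1454 with DESeq2, 464 with the replicate block, 4043 with only the groups compared, 4389 without Vehicle mice 1 and 2, and 393 to 2357 without 1 mouse, while the family count, 6 as reported, was 7 with only the groups compared and without Vehicle mice 1 and 2, 5 with the study's thresholds, 4 with the replicate block and 3 to 6 without 1 mouse. Csf3 in that comparison turned from -0.56 to 0.38 on the log2 scale without Sham mouse 2, and ranged from -1.03 to 0.38 over the fits without 1 mouse, none of which passed. Same-numbered mice of different groups did not deviate together (1 of 12 pairs correlated above 0.1, range -0.322 to 0.114), so the numbers pair nothing, and with the block Csf2ra (adjusted p = 0.0572) and Csf3r (0.0783) no longer passed between LJP and Sham. Il34 passed between LJP and Sham with only the groups compared (adjusted p = 0.0436) and without Vehicle mice 1 and 2 (0.0328). Scaling by library size or relative log expression changed no call of a family gene. With GENCODE lengths the ratio of Il34 to Csf1 moved by less than the spread between mice. Csf2, at 0 in every mouse, could not be tested, so the exact test and the other pseudocount planned for it were not run. Depth limits Csf2 and, in Sham and LJP, Csf3. The causes of these changes were not tested.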
